A study of Rattus norvegicus with 6 samples.

Results

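Aldehyde dehydrogenases oxidise aldehydes to carboxylic acids, with NAD or NADP as the electron acceptor. The 10 genes of this family described here were Aldh1l1, Aldh1a1, Aldh3b1, Aldh2, Aldh3a2, Aldh4a1, Aldh6a1, Aldh7a1, Aldh9a1 and Aldh1a7, and a probe was taken for a gene where its RefSeq transcript accession belonged to that gene. This gave 18 probes for 9 of the 10 genes, of 61537 probes and 15645 gene symbols in all. Aldh1a7 was matched to no probe through the gene table used and is not analysed here.

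The RNA came from the renal cortex of male Sprague-Dawley rats, which were 5 weeks old when bought. Of these rats, 3 were given chlorothalonil, a chlorinated fungicide, at 500 mg/kg/day for 4 weeks, and 3 were given corn oil, the vehicle, for 4 weeks. Each animal gave 1 Agilent 1-colour array. The comparison asks which transcripts of the renal cortex differ after the fungicide.

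The family acts in several compartments of the cell. Cytosolic members clear aldehydes from lipid peroxidation and foreign compounds, make retinoic acid from retinal or take part in folate metabolism. Mitochondrial members act in the breakdown of ethanol, proline, valine and lysine. The proximal tubule, the main cell type of the cortex, is known to express several of these enzymes.

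Between 62.1% and 67.8% of the probes on each array were well above background, and no probe was saturated. All 3 chlorothalonil arrays lay on 1 slide and all 3 corn oil arrays on another, scanned on different days. The slides and the treatment cannot be told apart in any of these values. The labels of chlorothalonil replicate 3 disagree, since its source name gives ethylenediamine dihydrochloride and its other labels give chlorothalonil. Results are therefore also given without that array where it decides them. The 10 spike-in controls match no rat RNA. Relative to each array's 75th percentile, they differed by −0.34 to 0.05 on the log2 scale (chlorothalonil minus corn oil). Of the 10, 9 were lower on the chlorothalonil slide. The 75th percentile comes from the rat probes, so these values do not measure the slides alone. Proximal tubule markers, all 16 of them measured, gave 0 calls in limma, against 3.12% of all features called. Their median log2 difference was 0.07. Before adjustment 6 of the 16 had a limma p below 0.05, against 19.7% of all features. Of these 6, Slc34a1, Slc13a3, Miox and Fbp1 were higher with chlorothalonil, by 0.17 to 0.34 on the log2 scale. Slc5a2 and Slc5a12 were lower, at −0.35 and −0.27. The 16 markers summed to 3407 to 3770 times the array's 75th percentile with chlorothalonil and 3090 to 3297 times with corn oil. The brightest markers weigh most in such a sum.

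Of the 9 measured aldehyde dehydrogenases, 3 rose with chlorothalonil, 0 fell and 6 did not pass. The test was limma on log2 signals relative to each array's 75th percentile, with an adjusted p of 0.05 as the threshold over all 29115 features. Aldh1l1 rose 3.88-fold, Aldh3b1 2.82-fold and Aldh1a1 1.52-fold. Over all features, 3.12% changed, 1.3% rose and 1.82% fell. Before adjustment, limma gave a p below 0.05 to 5 of the 9 genes, all higher, and to 19.7% of all features. Every one of the 6 arrays had all 9 genes well above background, and all 18 probes were kept, so none entered through the group in which it was high. The median log2 difference of the 9 genes was 0.27, against 0.0035 for all features. The members were chosen with earlier results of these data known, so these shares do not come from a blind choice. Among 8 other aldehyde dehydrogenase genes measured, limma called 0, and their median was 0.06. In bulk tissue, a change in the number of cells of a type and a change in RNA per cell cannot be told apart.

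**Figure D1:**
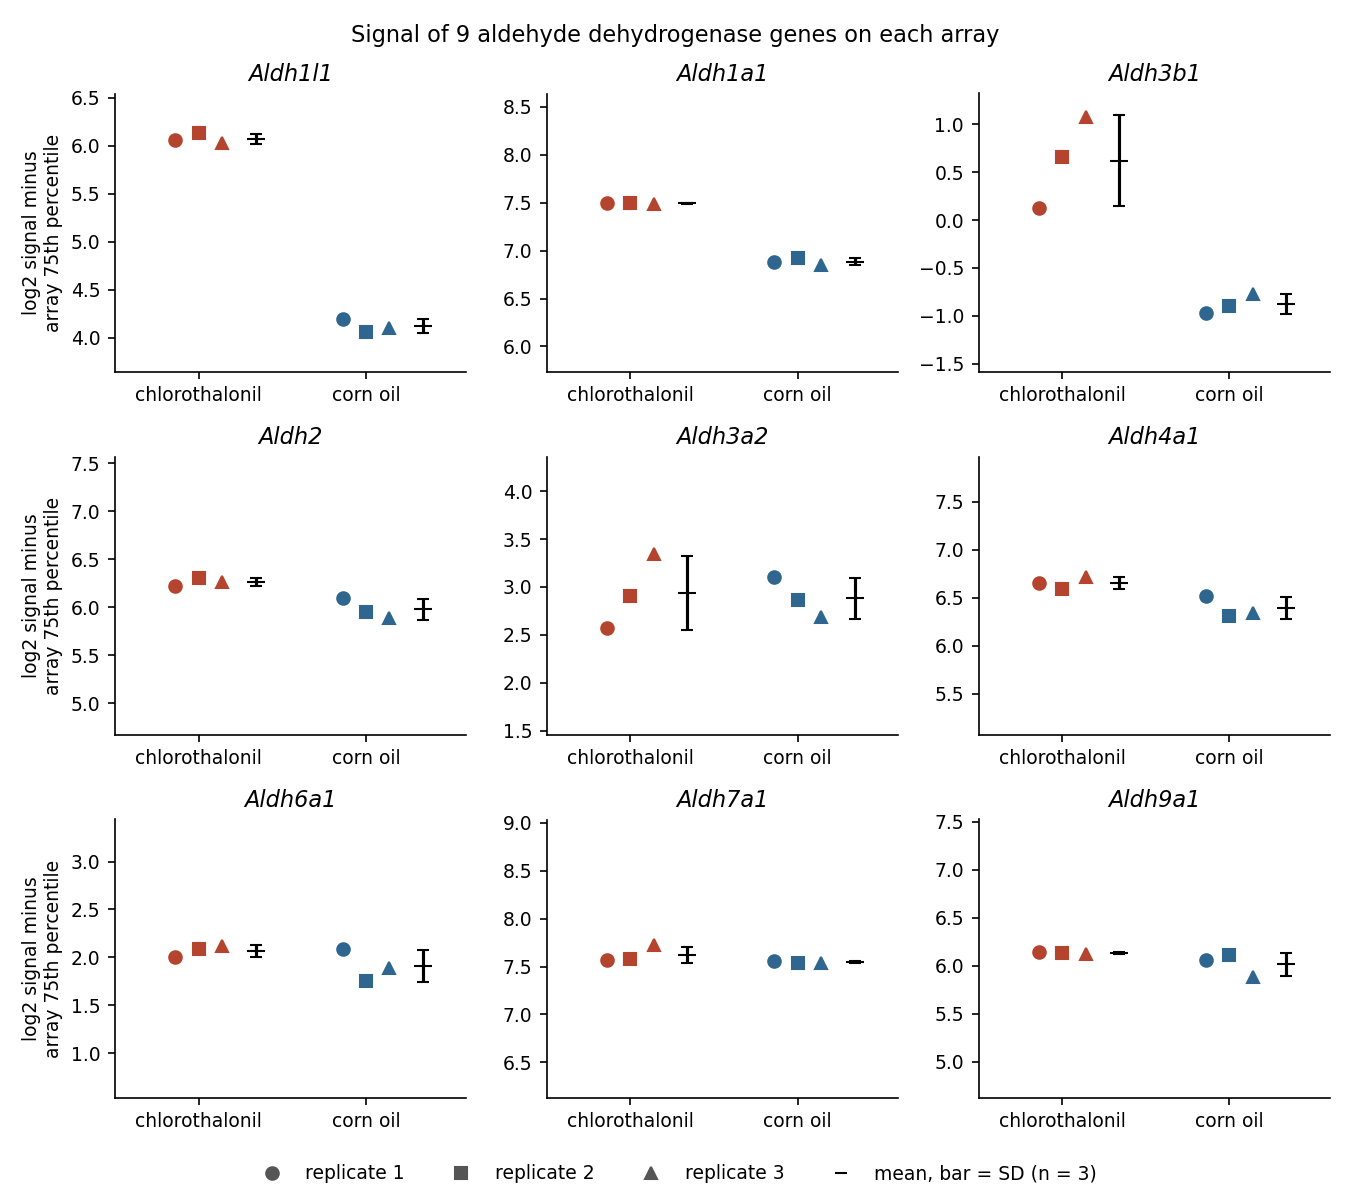
Log2 signal minus the array's 75th percentile (vertical axes, each spanning the same range of log2 units) of the brightest probe of 9 aldehyde dehydrogenase genes, with chlorothalonil in red on the left and corn oil in blue on the right. Marker shapes give the replicate, and the black dash and bar give the mean and SD of 3 arrays. Aldh1l1, Aldh1a1 and Aldh3b1 show the widest gaps between the groups, and Aldh3a2 spreads within each group.

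Aldh1l1 is 10-formyltetrahydrofolate dehydrogenase, the cytosolic enzyme that turns a folate-bound formyl group into carbon dioxide and frees tetrahydrofolate. On the log2 scale, after subtraction of the array's 75th percentile, its signal was 6.06, 6.13 and 6.03 in chlorothalonil replicates 1 to 3, against 4.20, 4.06 and 4.10 in corn oil replicates 1 to 3. The groups did not overlap, and the gap between them was far wider than the spread within either. The log2 difference was 1.95 ± 0.07 (SE, n = 3 arrays per group), with an adjusted limma p of 0.000923. The processed signal, before any scaling, was 54803 to 65071 with chlorothalonil and 15942 to 16480 with corn oil. Only 70 of the 29115 features rose further, and 4 had a smaller p. A single probe measured the gene, so no other probe bears on its value.

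Aldh1a1 is the cytosolic retinal dehydrogenase, which also oxidises aldehydes of lipid peroxidation. Its log2 signal was 7.49, 7.49 and 7.49 in chlorothalonil replicates 1 to 3, against 6.88, 6.92 and 6.85 in corn oil replicates 1 to 3. The chlorothalonil arrays were almost level, with an SD of 0.0037, and all lay above the corn oil arrays. Chlorothalonil minus corn oil came to 0.61 ± 0.06 (SE) in log2 units, with an adjusted limma p of 0.0109. The other, dimmer probe gave 0.49 ± 0.06, with an adjusted p of 0.0244 when every probe was tested as a feature of its own. Aldh1a1 and Aldh1a7 are close relatives in rodents, so what part of the Aldh1a1 signal belongs to Aldh1a7 was not tested.

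Aldh3b1 oxidises medium- and long-chain aldehydes, among them products of lipid peroxidation. Its log2 signal was 0.12, 0.66 and 1.07 in chlorothalonil replicates 1 to 3, against −0.97, −0.90 and −0.77 in corn oil replicates 1 to 3. The chlorothalonil arrays spread over nearly 1 log2 unit, with replicate 3 highest and replicate 1 lowest, and the corn oil arrays lay close together. The SD was 0.48 with chlorothalonil and 0.10 with corn oil. The difference, in log2 units, was 1.50 ± 0.24 (SE), with an adjusted limma p of 0.0379. The second probe repeated the value, with 1.49 ± 0.23 and an adjusted p of 0.0372 over all probes.

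The firmness of these 3 calls differed. Aldh1l1 passed in all 6 fits that left out 1 array, with a log2 difference of 1.92 to 1.99 and an adjusted limma p of 0.00575 to 0.0189. The size of Aldh1a1 hardly moved, at 0.59 to 0.63, but its adjusted p was 0.0583, 0.0584 and 0.0525 without chlorothalonil replicates 1, 2 and 3, and 0.0415, 0.0398 and 0.0492 without corn oil replicates 1, 2 and 3. Aldh3b1 passed only without chlorothalonil replicate 1, with a log2 difference of 1.74 and an adjusted p of 0.0459. In the other 5 fits its adjusted p lay between 0.0781, without chlorothalonil replicate 3, and 0.129, without chlorothalonil replicate 2. Without chlorothalonil replicate 3, the array with the disagreeing labels, the log2 differences were 1.98 for Aldh1l1, 0.61 for Aldh1a1 and 1.27 for Aldh3b1. In that fit 1 of the 9 genes, Aldh1l1, passed. So did 182 of all 29713 features, against 909 of 29115 with all 6 arrays. Over the 6 fits that left out 1 array, limma called 112 to 388 features. The log2 difference of Aldh1a1 was 0.47 with quantile normalization and 0.66 with array median scaling. With no filter on dim probes, Aldh1a1 had an adjusted limma p of 0.0522 and Aldh3b1 of 0.0961. With the replicate number as a block, 0 of all 29115 features passed. The adjusted limma p was then 0.0735 for Aldh1l1, 0.086 for Aldh1a1 and 0.089 for Aldh3b1.

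**Figure D2:**
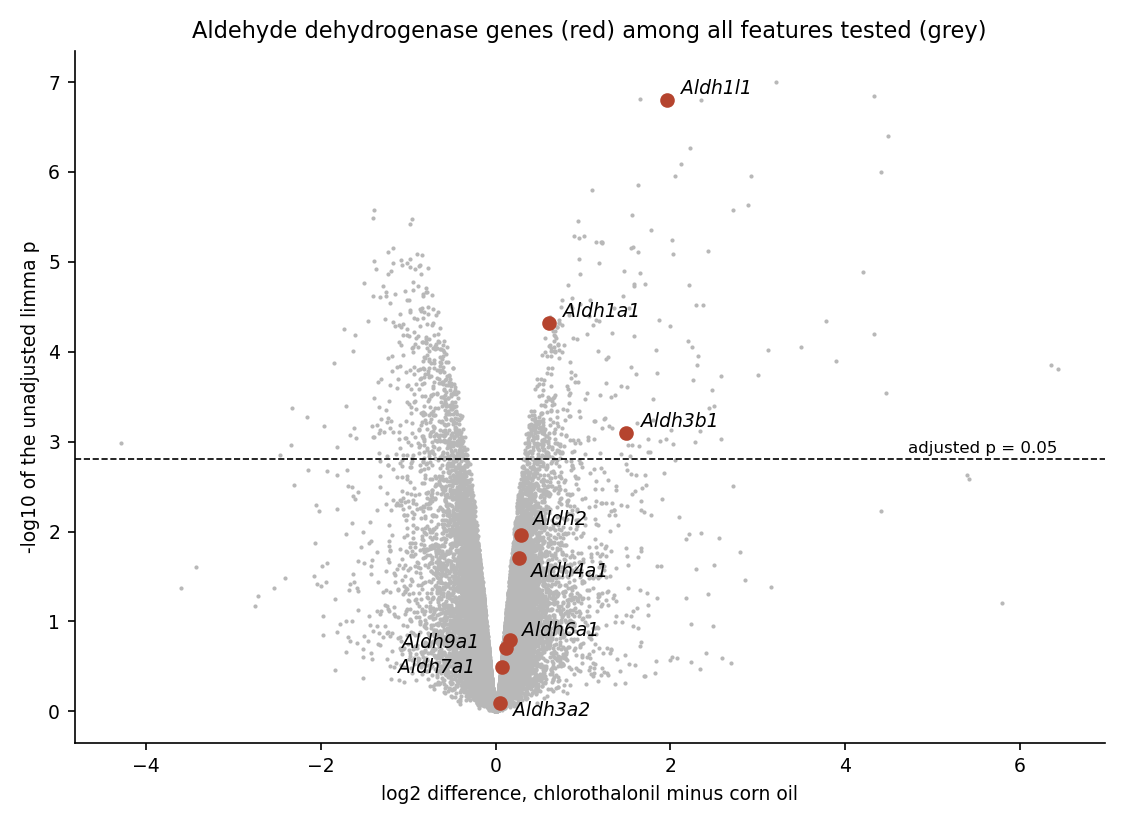
Log2 difference, chlorothalonil minus corn oil (horizontal axis), against −log10 of the unadjusted limma p (vertical axis) for 29115 features in grey, with the 9 measured aldehyde dehydrogenases in red. Of the red points, 3 lie above the dashed line, where the adjusted p is 0.05, and all 9 lie right of 0.

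Windows before an annotated transcript start are shown for the 3 genes that rose, because these moved in the same direction. They hold the 250 bases before 1 RefSeq transcript start of a gene, in build GRCr8, and were available for 8 of the 9 measured genes, all except Aldh2. That start is not the outermost start of the gene for 4 of the 8. It lies 110681 bases inside the annotated gene for Aldh1a1, 13373 for Aldh3b1, 114 for Aldh3a2 and 38 for Aldh1l1, so the Aldh1a1 and Aldh3b1 windows lie wholly within their genes. Whether exon or intron lies there was not determined, and which start the kidney uses was not tested. The Aldh1l1 window is printed up to the outermost start, as 212 bases. All windows were searched at full length on both strands for the core of the antioxidant response element (TGACNNNGC), which NRF2 binds, the core of the xenobiotic response element (GCGTG), which the aryl hydrocarbon receptor binds, the CCAAT box (CCAAT) and the TATA box (TATAAA). Capitals mark matches. The window of Aldh9a1, which did not pass, is shown beside them because it holds the most xenobiotic response cores.
Aldh1l1, chr4:124616970-124617181, plus strand: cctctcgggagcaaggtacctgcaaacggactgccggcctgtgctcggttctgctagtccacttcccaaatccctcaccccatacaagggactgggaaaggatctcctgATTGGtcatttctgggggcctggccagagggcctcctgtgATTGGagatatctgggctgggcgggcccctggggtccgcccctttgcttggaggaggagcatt
Aldh1a1, chr1:227537370-227537619, plus strand: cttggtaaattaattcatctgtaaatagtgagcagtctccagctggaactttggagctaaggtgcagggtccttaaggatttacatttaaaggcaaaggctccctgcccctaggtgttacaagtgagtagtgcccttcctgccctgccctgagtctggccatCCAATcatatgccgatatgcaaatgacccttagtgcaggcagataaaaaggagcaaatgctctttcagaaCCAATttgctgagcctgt
Aldh3b1, chr1:210591816-210592065, minus strand: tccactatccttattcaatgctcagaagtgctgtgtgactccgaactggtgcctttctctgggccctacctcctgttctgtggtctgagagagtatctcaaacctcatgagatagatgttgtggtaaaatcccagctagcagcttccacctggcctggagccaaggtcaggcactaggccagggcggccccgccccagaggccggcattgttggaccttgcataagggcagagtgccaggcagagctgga
Aldh9a1, chr13:82038429-82038678, plus strand: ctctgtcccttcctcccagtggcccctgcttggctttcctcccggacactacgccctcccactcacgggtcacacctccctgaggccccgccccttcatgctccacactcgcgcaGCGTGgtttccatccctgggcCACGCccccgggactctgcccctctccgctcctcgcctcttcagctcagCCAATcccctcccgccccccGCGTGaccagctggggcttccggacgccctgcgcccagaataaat

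None of the 8 windows held the antioxidant response core, which occurs in 10.2% of 27457 rat windows of the same length. Aldh1l1 and Aldh1a1 each held 2 CCAAT matches and Aldh3b1 held 0, while 34.3% of all windows hold at least 1. Among the genes that did not pass, Aldh6a1 and Aldh7a1 each held 3, Aldh3a2 and Aldh9a1 each held 1 and Aldh4a1 held 0. CCAAT matches therefore did not set apart the genes that rose. The xenobiotic response core was found 3 times for Aldh9a1, 2 times for Aldh3a2 and 1 time for Aldh7a1, and 27.2% of all windows hold it. Aldh4a1 had the only TATA match, a motif in 13.1% of windows. These are matches of letters in a short window and show neither binding nor its absence.

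Of the mitochondrial members, Aldh2, which clears acetaldehyde and 4-hydroxynonenal, was at 6.22, 6.30 and 6.26 in chlorothalonil replicates 1 to 3, against 6.10, 5.95 and 5.89 in corn oil replicates 1 to 3. The groups did not overlap, but the gap was small. The log2 difference was 0.29 ± 0.08 (SE), or 1.22-fold, with an adjusted limma p of 0.128. The second Aldh2 probe gave the same difference of 0.29. Over the 17 processing alternatives the adjusted limma p of Aldh2 lay between 0.0544, with normexp background correction, and 0.294, without chlorothalonil replicate 2.

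Aldh4a1, which completes the breakdown of proline to glutamate, was at 6.65, 6.59 and 6.72 in chlorothalonil replicates 1 to 3, against 6.52, 6.31 and 6.33 in corn oil replicates 1 to 3. The groups did not overlap on this probe, and did on the dimmer probes. Its difference was 0.27 ± 0.08 (SE) in log2 units, with an adjusted limma p of 0.166, and the dimmer probes gave 0.19 and 0.21. With normexp background correction the difference was 0.11, with an adjusted p of 0.469, the highest of the alternatives. The lowest adjusted limma p was 0.0891, with a robust variance prior with a trend. Corn oil replicate 1 was the highest corn oil array on all 3 probes of Aldh4a1 and on both probes of Aldh2.

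Aldh6a1, the methylmalonate semialdehyde dehydrogenase of valine and thymine breakdown, was at 2.00, 2.09 and 2.12 in chlorothalonil replicates 1 to 3, against 2.08, 1.75 and 1.89 in corn oil replicates 1 to 3. The groups overlapped through corn oil replicate 1. Aldh6a1 differed by 0.16 ± 0.10 (SE) in log2 units, with a 95% confidence interval of −0.09 to 0.41. Leaving out corn oil replicate 1 gave 0.25, and leaving out corn oil replicate 2 gave 0.08.

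Aldh7a1, or antiquitin, acts in lysine breakdown and in making betaine from betaine aldehyde. It was at 7.57, 7.57 and 7.72 in chlorothalonil replicates 1 to 3, against 7.56, 7.54 and 7.53 in corn oil replicates 1 to 3. The groups only just separated. The log2 difference of the brightest probe was 0.07 ± 0.07 (SE), and the other probes gave 0.19 and 0.02. The brightest probe gave 0.02 without chlorothalonil replicate 3, −0.13 with quantile normalization and 0.16 with normexp background correction. Array median scaling gave 0.13.

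Aldh9a1, which makes gamma-butyrobetaine for carnitine synthesis and oxidises aminobutyraldehyde, was at 6.14, 6.13 and 6.12 in chlorothalonil replicates 1 to 3, against 6.06, 6.11 and 5.88 in corn oil replicates 1 to 3. The groups separated by a margin smaller than the spread of the corn oil arrays. Aldh9a1 differed by 0.11 ± 0.08 (SE) in log2 units, with a 95% confidence interval of −0.08 to 0.31. The dimmer probe gave 0.05, and there the groups overlapped. Without corn oil replicate 3 the brightest probe gave 0.05.

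Aldh3a2, the fatty aldehyde dehydrogenase of the endoplasmic reticulum, was the most variable of the 6 genes that did not pass. Its log2 signal was 2.57, 2.90 and 3.34 in chlorothalonil replicates 1 to 3, against 3.11, 2.86 and 2.68 in corn oil replicates 1 to 3. The groups overlapped fully, and chlorothalonil replicate 3 was the highest array of all and replicate 1 the lowest. The log2 difference was 0.05 ± 0.22 (SE), with a 95% confidence interval of −0.48 to 0.59 and an adjusted limma p of 0.921. It was −0.15 without chlorothalonil replicate 3, −0.05 without corn oil replicate 3 and −0.012 with normexp background correction. The dimmer probe gave −0.04 ± 0.20. Among the chlorothalonil arrays, both probes of Aldh3a2 and both of Aldh3b1 had replicate 3 highest and replicate 1 lowest. The probe of Aldh6a1 and the brightest and dimmest probes of Aldh7a1 had the same order. The brightest probes of Aldh1l1, Aldh1a1, Aldh2, Aldh4a1 and Aldh9a1 did not. The share of all features with this order was not counted, and what the order reflects was not tested.

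Across the 6 genes that did not pass, the log2 differences lay between 0.05 and 0.29 and the 95% confidence intervals between −0.48 and 0.59. A change of 2-fold lay outside every one of these intervals. All 3 chlorothalonil arrays lay above all 3 corn oil arrays for 7 of the 9 genes. Over all features the groups were separated in this direction for 13.6%. Red blood cell transcripts also stood higher on the chlorothalonil arrays. All 6 markers measured were separated in that direction, with a median log2 difference of 0.36. The marker with the largest difference, Slc4a1 at 0.73, was also listed as a marker of the collecting duct. Limma called 0 of the 6, against 3.12% of all features. It gave 5 of them a p below 0.05 before adjustment, against 19.7% of all features. The 6 markers summed to 568 to 614 times the array's 75th percentile with chlorothalonil and 483 to 502 times with corn oil. The part of red cells or of the proximal tubule share in the small differences was not tested.

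When every probe was tested as a feature of its own, 5 of the 18 aldehyde dehydrogenase probes rose, against 1.24% of all kept probes. These were the probes of Aldh1l1, Aldh1a1 and Aldh3b1.

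**Figure D3:**
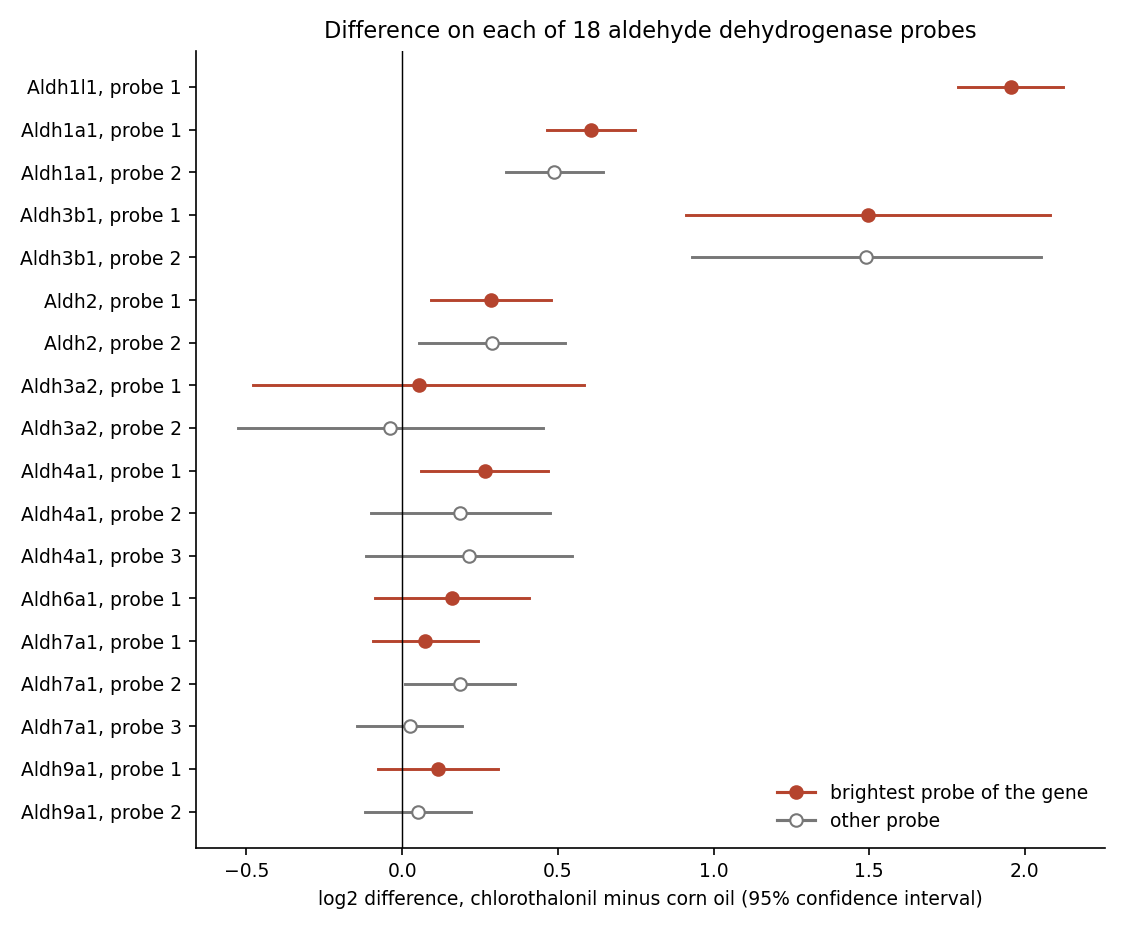
Log2 difference, chlorothalonil minus corn oil (horizontal axis), on each of the 18 aldehyde dehydrogenase probes, with its 95% confidence interval. Filled red points are the brightest probe of a gene and open grey points its other probes. Of the 18 probes, 17 lie right of 0 and the 5 probes of Aldh1l1, Aldh1a1 and Aldh3b1 lie furthest right.

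Of the other aldehyde dehydrogenase genes, 8 of 11 were measured, and limma called 0 of them, against 3.12% of all features. Before adjustment 2 of the 8 had a limma p below 0.05, against 19.7% of all features. The median log2 difference of the 8 was 0.06, with 5 above 0 and 3 below. Aldh18a1, which makes the proline precursor pyrroline carboxylate from glutamate, had the smallest p of these, with a log2 difference of −0.30 ± 0.09 (SE) and an adjusted limma p of 0.165. Aldh1l2, the mitochondrial relative of Aldh1l1, differed by 0.41 ± 0.13 (adjusted p 0.171) and by −0.18 on its other probe. Aldh3a1, known in rats as an aldehyde dehydrogenase induced through the aryl hydrocarbon receptor, differed by 0.12 ± 0.07 (adjusted p 0.424), and by 0.34 ± 0.11 on its other probe. The retinal dehydrogenases Aldh1a2 and Aldh1a3 were at −0.30 ± 0.14 and 0.38 ± 0.20. Both were dim, with mean log2 signals of −3.22 and −3.98 with chlorothalonil and −2.92 and −4.37 with corn oil.

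The genes around these enzymes were taken from 9 lists, of which 123 of 146 genes outside the 10 were measured. Limma called 4 of the 123 higher and 0 lower, against 1.3% and 1.82% of all features. It gave 37 of the 123 a p below 0.05 before adjustment, against 19.7% of all features. These 4 calls depended on the setting. None passed with quantile normalization, with no filter on dim probes, without chlorothalonil replicates 1 or 2 or without any single corn oil array, and Cat alone passed without chlorothalonil replicate 3.

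Among 10 alcohol dehydrogenases, aldehyde and amine oxidases and catalase, Cat rose, by 0.78 ± 0.13 (SE) on the log2 scale, or 1.72-fold, with an adjusted limma p of 0.0424. Catalase breaks down hydrogen peroxide and can oxidise ethanol. The median of this list was 0.28, with 8 genes above 0 and 2 below. Before adjustment 6 of the 10 had a limma p below 0.05, against 19.7% of all features. Among 18 folate one-carbon genes, which surround Aldh1l1, Folr1, a folate receptor of the proximal tubule, rose by 0.41 ± 0.06, with an adjusted p of 0.0378. The other 17 did not pass, and the median of the list was 0.10. Before adjustment 3 of the 18 had a limma p below 0.05.

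Among 13 genes of proline and hydroxyproline metabolism, around Aldh4a1, Hoga1, the last enzyme of hydroxyproline breakdown, rose by 0.36 ± 0.06 (SE), with an adjusted limma p of 0.0464. Its other probe gave 0.14. Of the 13 genes, 5 had a limma p below 0.05 before adjustment, and their median log2 difference as a list was 0.08. Among 17 genes of valine, branched-chain and propionate breakdown, around Aldh6a1, Hibch, which acts shortly before Aldh6a1 in valine breakdown, rose by 0.48 ± 0.09, with an adjusted p of 0.0485. All 17 had a log2 difference above 0, with a median of 0.24, and 10 of them reached a p below 0.05 before adjustment. Over all features 50.8% lay above 0, and limma gave 19.7% a p below 0.05 before adjustment. Of the features with a gene symbol, 55.7% lay above 0.

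In the lists around the remaining genes limma called 0 genes, against 3.12% of all features. Before adjustment, a p below 0.05 was reached by 5 of 20 genes of retinoid metabolism, 4 of 12 of lysine and choline breakdown, 0 of 11 of carnitine and polyamine metabolism and 3 of 15 of fatty aldehyde and sphingolipid breakdown. The share of all features with such a limma p was 19.7%. The gene with the smallest p in the retinoid list was the retinoic acid receptor Rarb, with a log2 difference of 0.39 ± 0.08 (SE; adjusted limma p 0.0735). In the lysine and choline list it was Sardh, the sarcosine dehydrogenase, with 0.42 ± 0.11 (adjusted p 0.125). The carnitine transporter Slc22a5 differed by −0.10 ± 0.06 (adjusted p 0.396). Hacl1, which cleaves a fatty acyl-CoA to an aldehyde in peroxisomes, differed by 0.28 ± 0.08 (adjusted p 0.127).

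**Figure D4:**
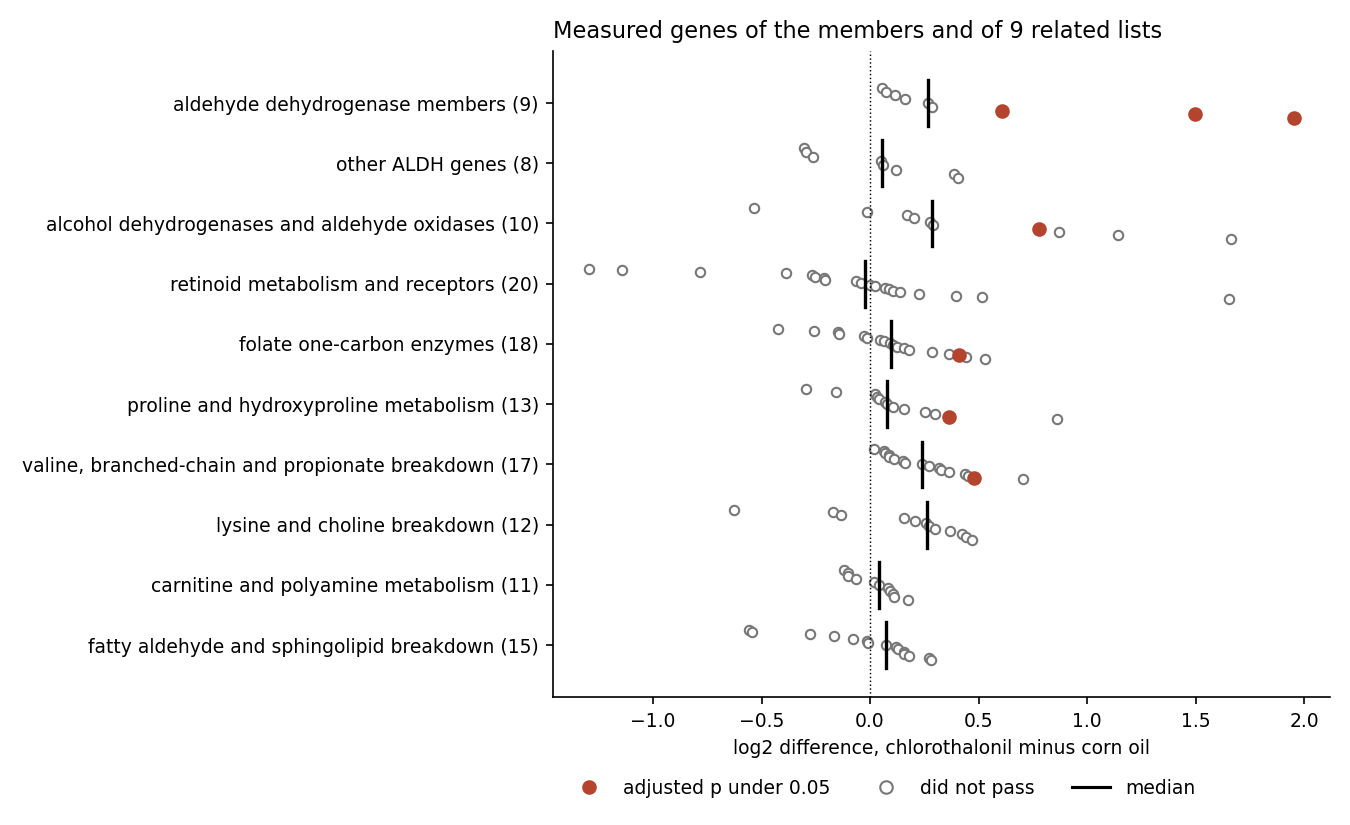
Log2 difference, chlorothalonil minus corn oil (horizontal axis), of each measured gene of the 9 aldehyde dehydrogenases and of the 9 related lists, with the number measured in brackets. Filled red points passed at an adjusted limma p under 0.05, open points did not, and black bars are medians. Red points number 3 among the aldehyde dehydrogenases and 4 among the related lists, all right of 0.

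Across the 6 arrays, the 5 named genes whose profile was most like that of Aldh1l1 were Abcc1, Rgs11, Nox4, Ptgr1 and Dap. Pearson's r over the 6 arrays lay between 0.9976 and 0.9991, and every such r reflects mainly the step between the groups. All rose in limma, by 0.62 ± 0.06 (SE) for the conjugate exporter Abcc1, 2.35 ± 0.08 for the G protein regulator Rgs11 and 0.90 ± 0.06 for the NADPH oxidase Nox4. The log2 difference was 1.10 ± 0.06 for Ptgr1, a reductase of prostaglandins and alkenals, and 1.65 ± 0.06 for Dap, a regulator of autophagy. Of the 3 probes of Rgs11, the other two gave 0.54 and −0.13.

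**Figure D5:**
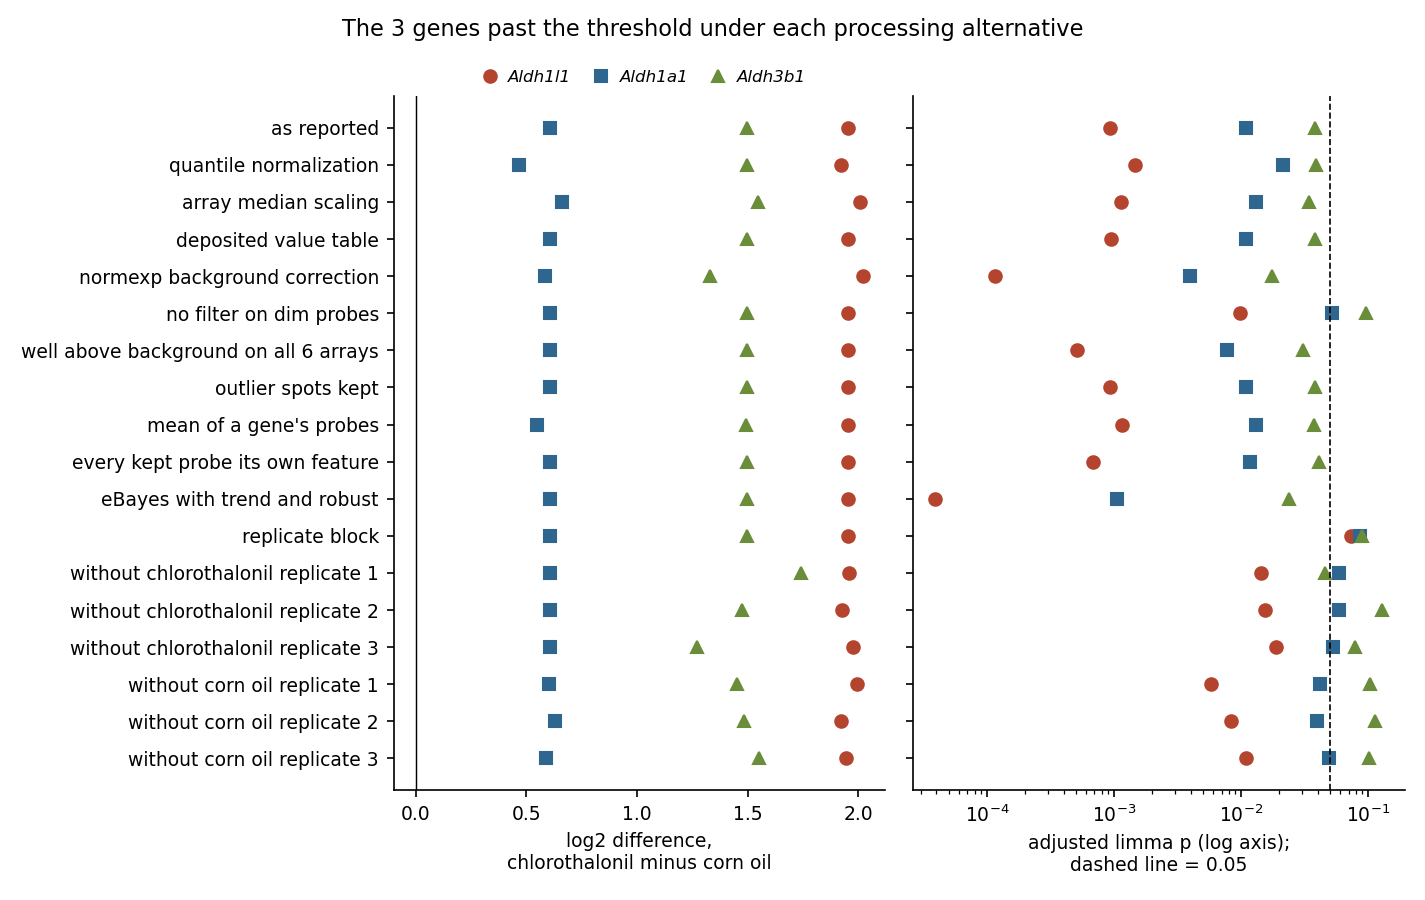
Log2 difference, chlorothalonil minus corn oil (left, horizontal axis), and adjusted limma p on a log axis (right) of Aldh1l1, Aldh1a1 and Aldh3b1 under each processing alternative (rows). All 3 genes stayed above 0 in every row, and Aldh1l1 stayed left of the dashed line at 0.05 in all but the fit with the replicate block.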

How the data were processed

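Renal cortex RNA was labelled with Cy3 and hybridised to Agilent arrays, 1 per animal, per the labels' protocols. The deposited intensity is the scanner's processed signal, background-subtracted and spatially detrended within each array but not scaled between arrays, per the file headers. Agilent Feature Extraction 10.7 produced it, per the submitters' processing notes. The values deposited beside it are a ratio of that signal to a single constant per array, close to its 75th percentile, as the values themselves show. Its direction is that of the signal and its genes are not centred; the medians of its columns were 0.105 to 0.106 with chlorothalonil and 0.107 to 0.112 with corn oil. Per the file headers, flags mark spots above background, saturated or outlying; these other columns served as filters.

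Signals were put on the log2 scale and each array's 75th percentile was subtracted. A probe was kept if all 3 arrays of either group had it well above background and each group had it on 2 or more. Outlier spots, 0 to 9 per array, were left out. Accessions were named through a RefSeq table of GRCr8, which matched 28206 of 61537 probes. The brightest kept probe stood for each gene. Probe positions are not given, because the headers refer to an earlier rat assembly. The sequence windows carry GRCr8 coordinates. The test was lmFit and eBayes of limma 3.58.1 (R 4.3.3), with Benjamini-Hochberg adjustment over 29115 features. The number of arrays limits the precision. On simulated data with 29115 features, the fit called 70 of 100 features changed 2-fold, 91 of 100 changed 4-fold and 12 unchanged ones.

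All members are named, and from each list up to 4 genes past the threshold or else the one with the smallest p, and the 5 features most like the member with the smallest p. Members, lists and motifs were chosen with earlier results of these data known, and the CCAAT and TATA boxes after the sequences were seen. The design text calls the samples biological replicates. Replicate numbers are shared between groups, but the deviations of same-numbered arrays correlated by only 0.0177 to 0.0948, so they were not treated as pairs. Slide could not be fitted as a block, since each group lay on 1 slide.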

Additional observations from a re-analysis of the deposited data

How the results depend on the processing

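Alternatives were quantile normalization, array median scaling, the deposited value table, normexp background correction on the median spot signal with an offset of 50, no filter or a stricter filter on dim probes, keeping outlier spots, averaging or separating probes, a robust variance prior with a trend, a replicate block, and leaving out each array. A slide block, fixed or random, could not be fitted and was not run. The log2 differences of Aldh1l1, Aldh1a1 and Aldh3b1 stayed above 0 in all 17 alternatives, and the 3 genes passed in 16, 12 and 10 of them. Of all 9 genes 3 rose as reported, 1 with no filter on dim probes, where 45432 features were tested, 0 with the replicate block and 1 to 2 when an array was left out. The features changed numbered 909 as reported, 172 with no filter, 0 with the replicate block and 112 to 388 when an array was left out. Of the chlorothalonil arrays, replicate 3 did not correlate best with its own number. The replicate block leaves 2 residual degrees of freedom, and with it the adjusted p was 0.0735 for Aldh1l1, 0.086 for Aldh1a1 and 0.089 for Aldh3b1. Array median scaling moved the split of all changed features to 435 higher and 368 lower, against 378 and 531 as reported, and the median of all features to 0.06, against 0.0035. The related list genes that rose numbered 4 as reported, 0 with quantile normalization, with no filter and with the replicate block, 2 with every probe its own feature, 7 with normexp and with the variance prior with trend, and 0 to 1 when an array was left out. Those that fell numbered 0 as reported, 1 with normexp and with probes above background on all 6 arrays, and 2 with the variance prior with trend. The difference of Aldh3a2 turned to −0.012 with normexp, and lay between −0.15 (without chlorothalonil replicate 3) and 0.24 (without chlorothalonil replicate 1) when an array was left out, with −0.05 without corn oil replicate 3, and that of Aldh7a1 to −0.13 with quantile normalization. The cause of these turns was not tested.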

Other observations

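Enzymes that supply the substrates of the measured aldehyde dehydrogenases were looked at after their values were seen. Prodh, the proline dehydrogenase whose product leads to the substrate of Aldh4a1, was at 0.86 ± 0.30 (SE) on the log2 scale (chlorothalonil minus corn oil), with an adjusted limma p of 0.198. Its log2 signal was 5.40, 5.46 and 5.07 in chlorothalonil replicates 1 to 3, against 5.08, 4.35 and 3.92 in corn oil replicates 1 to 3, so the groups overlapped. Hibadh, which makes the substrate of Aldh6a1, differed by 0.24 ± 0.06 (adjusted p 0.0996). Mthfd1, which makes the 10-formyltetrahydrofolate that Aldh1l1 removes, differed by 0.28 ± 0.12 (adjusted p 0.253). The folate transporter Slc46a1 differed by −0.42 ± 0.08 (adjusted p 0.0535). Sgpl1, which releases the fatty aldehyde of sphingolipids that Aldh3a2 oxidises, was at 0.12 ± 0.06, and Aass, which starts the lysine pathway of Aldh7a1, at 0.16 ± 0.08. None of these genes passed the threshold.

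Aox1, an aldehyde oxidase that shares substrates with the aldehyde dehydrogenases and was also chosen after its values were seen, stood at 1.88, 2.14 and 2.38 in chlorothalonil replicates 1 to 3, against 1.21, 1.46 and 0.30 in corn oil replicates 1 to 3. The groups did not overlap, and its log2 difference of 1.14 ± 0.32 (SE) had an adjusted limma p of 0.134. Corn oil replicate 3 lay well below the other corn oil arrays. Like Aldh3b1, Aldh3a2, Aldh6a1 and the brightest and dimmest probes of Aldh7a1, Aox1 had chlorothalonil replicate 3 highest and replicate 1 lowest.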
